A study of Danio rerio with 4 samples.

Results

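Long noncoding RNA genes that were well expressed in whole zebrafish embryos were described in 4 RNA-seq libraries. A gene was counted as one when the deposited table gave its biotype as lincRNA, antisense, lncRNA or processed_transcript and its mean FPKM over the 4 libraries was at least 5. FPKM counts the sequenced fragments of a gene relative to its length and to the depth of the library. The table held 26812 genes, of which 1837 had one of these biotypes and 127 also reached the mean level. The members were thus chosen by their measured level in these same libraries, and their level is given as a description.

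The libraries were 1 each of wild-type (WT) embryos at 24 h post fertilization (hpf), KDM5A-KO embryos at 24 hpf, WT embryos at 48 hpf and KDM5A-KO embryos at 48 hpf. KDM5A is a demethylase that removes methyl groups from lysine 4 of histone H3, a mark of active promoters, and the comparison of KDM5A-KO with WT asked which genes differ in level when it is disrupted. The labels describe a CRISPR/Cas9 knockout with embryos collected from separate matings of WT and KO fish, their titles carry the abbreviation mo, and the methods of the study describe injection of a KDM5A guide RNA and a Cas9 plasmid into the yolk, so whether the embryos were from a stable line or a mosaic of edited cells is not settled by the sources used here. Each library was a pool of whole embryos at 24 hpf according to the methods, and pooling at 48 hpf is not described there. With 1 library in each group there was no replicate check, no p-value across genes was computed, and every difference below is a difference between libraries.

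The library totals that the FPKM values imply were 7441797 (WT) and 14724748 (KDM5A-KO) fragments at 24 hpf and 15525056 and 15922314 at 48 hpf. The earliest WT library was thus the shallowest. The targeted gene did not separate the 24 hpf libraries in the direction of the labels. KDM5A had an FPKM of 13.8 and 20.3 in WT and KDM5A-KO at 24 hpf and of 18.1 and 16.3 at 48 hpf, and KDM5A-KO here means only that a library bears this label. Genes annotated as rRNA or lying near a 5.8S rRNA gene took 12.1% of the fragments of the 24 hpf WT library and between 0.290% and 0.432% of the other 3. Their fragments are called rRNA fragments below. Genes annotated as rRNA alone took 0.124% of the 24 hpf WT library and between 0.00334% and 0.0138% of the other 3. Markers of later tissues separated the times, with the 3 lens crystallin genes summing to 21.5 and 12.8 FPKM at 24 hpf and to 698 and 296 FPKM at 48 hpf. Both keratin and globin genes, of epidermis and red blood cells, were present in all 4 libraries. Fewer cells of a type and less RNA per cell cannot be told apart in such whole embryo libraries.

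Long noncoding RNAs are transcripts that carry no long conserved reading frame, and many are spliced and polyadenylated much like mRNAs. Some act in the nucleus on chromatin or splicing bodies, some are the carriers from which small nucleolar RNAs are cut, and others are by-products of transcription next to a coding gene. In zebrafish as in mammals most are present at far lower levels than mRNAs and are restricted to a tissue or a stage. In the table, 639 genes were lincRNA (transcripts lying between coding genes), 460 were antisense to another gene and 738 were processed_transcript (spliced transcripts for which no reading frame was annotated). No gene carried the biotype lncRNA.

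The 127 members were 54 lincRNA, 8 antisense and 65 processed_transcript genes, which is 8.45%, 1.74% and 8.81% of the genes of each biotype. Their gene models were between 242 and 7564 bases long with a median of 1107 bases, counted as the exon length that the FPKM values imply. The members took between 0.380% and 0.464% of all fragments of a library, with a median FPKM of 7.58 and 9.54 in WT and KDM5A-KO at 24 hpf and of 9.10 and 9.03 at 48 hpf. Most lay close to the threshold. A mean below 10 FPKM was found for 69 members, a mean of at least 20 FPKM for 23 and a mean of at least 100 FPKM for 3. All 4 libraries reached 5 FPKM for 64 members, 3 libraries for 26, 2 libraries for 36, and 1 library alone for birc6-as2. The remaining 63 members therefore passed with at least 1 library below 5 FPKM, and a spread between libraries was built into their selection. Just inside the threshold were si:dkey-53i3.1, si:dkeyp-69b9.4 and ENSDARG00000102240 (a lincRNA on chromosome 3 matched to a zinc finger protein) with mean levels of 5.21, 5.04 and 5.03 FPKM. Just outside it were si:ch211-42d10.5, si:ch73-274k23.3 and si:ch211-269k10.6 with 4.95, 4.93 and 4.91 FPKM.

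The label of noncoding was checked against the protein matches that the table lists for each gene. A UniProt protein was listed for 33 members, only a protein of the NCBI nr collection for 31, and no protein for 63. A match is a best database hit and does not show that a protein is made. RefSeq, in its annotation of the GRCz12tu assembly, held 39 of the members under the same symbol. It called 21 of these lncRNA and 18 protein_coding. A further 2, si:dkey-221l21.2 and si:ch211-114n24.7, appeared there as older names of the protein-coding genes cbfa2t2 and bin1b, and 86 were not matched. The label thus goes against the annotation for a clear share of the members. The coding names among them included rps20, a protein of the small ribosomal subunit, hadhb, an enzyme of mitochondrial fatty acid oxidation, olig3, a transcription factor of the dorsal neural tube, dsg2.1, a desmosomal cadherin, and rxrga, a retinoid receptor. The members without any protein match had a median level of 8.78 FPKM and a median length of 812 bases, beside 10.4 FPKM and 1633 bases for those with a UniProt match.

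**Figure D1:**
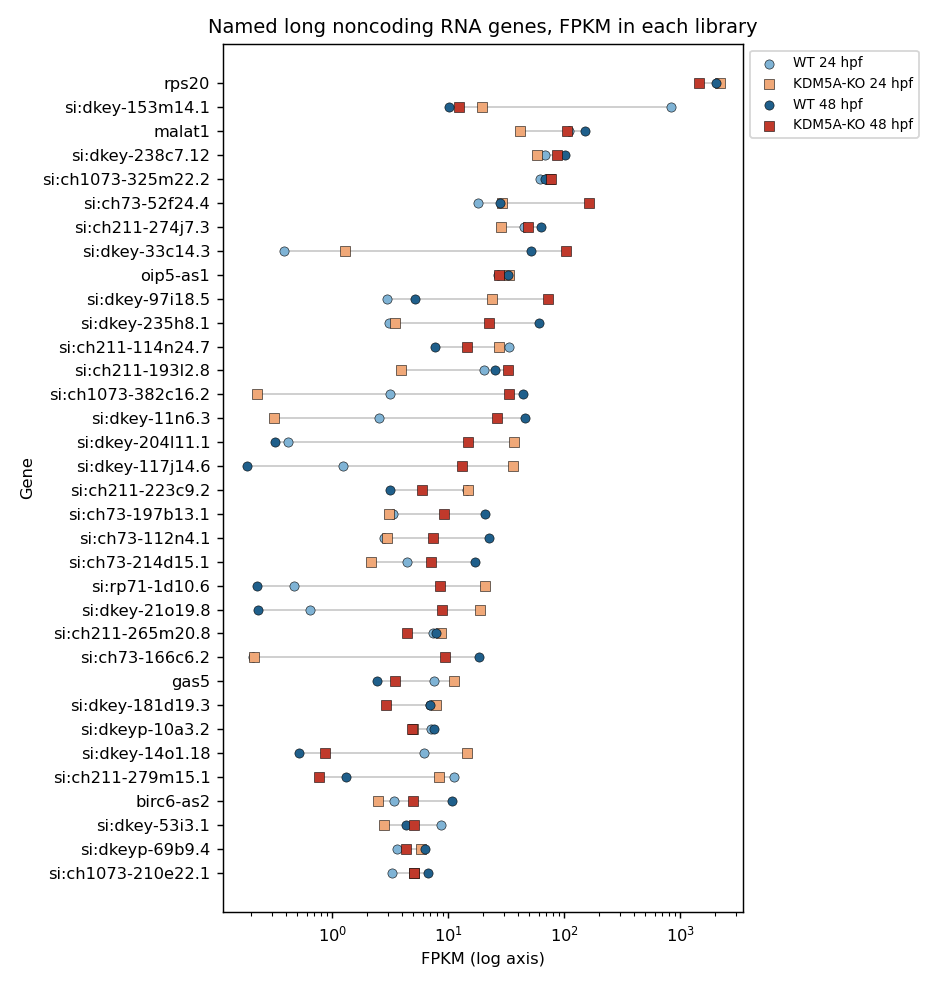
FPKM (log axis) of the 34 named members in each of the 4 libraries, ordered by mean level; circles are WT and squares KDM5A-KO, pale at 24 hpf and dark at 48 hpf, with a grey line from the lowest to the highest library. The library labelled KDM5A-KO lay far above WT at both times for si:dkey-204l11.1, si:dkey-117j14.6, si:rp71-1d10.6 and si:dkey-21o19.8, while si:dkey-33c14.3 separated the times.

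The highest members were led by a gene that encodes a protein elsewhere in the annotation. rps20 had an FPKM of 2088 in WT and 2178 in KDM5A-KO at 24 hpf, and of 2028 and 1456 at 48 hpf. It alone took between 18.0% and 30% of the fragments of all members. Its level was nearly even over 3 libraries and lowest in the 48 hpf KDM5A-KO library, with a ratio to WT of 0.718 (95% exact interval 0.701 to 0.735). Such intervals come from the recovered fragments (Clopper-Pearson) and cover counting error only, not the spread between embryos or preparations.

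malat1, a transcript that in mammals stays in the nucleus at splicing speckles, was the most abundant member with no protein match and overlaps the coding gene zgc:154040, whose mean was below 1 FPKM. It had an FPKM of 111 and 41.8 in WT and KDM5A-KO at 24 hpf and of 150.1 and 106 at 48 hpf. Both libraries labelled KDM5A-KO were below both WT libraries. The ratio to WT was 0.378 (0.364 to 0.393) at 24 hpf and 0.706 (0.689 to 0.722) at 48 hpf. oip5-as1, also called cyrano, a conserved transcript with a microRNA binding site, was among the most even members. It had an FPKM of 26.6 in WT and 33.5 in KDM5A-KO at 24 hpf and of 32.4 and 27.3 at 48 hpf, so that its highest library was only slightly above its lowest and the order of genotypes turned between the times.

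Other members of the highest level carried only clone names. si:dkey-238c7.12 had an FPKM of 68.5 and 58 in WT and KDM5A-KO at 24 hpf and of 102 and 86.5 at 48 hpf. si:ch1073-325m22.2 had 61.7 and 74.6 FPKM at 24 hpf and 68.3 and 76.4 FPKM at 48 hpf. si:ch211-274j7.3, whose best nr match was a mucin-2-like protein, had 45.1 and 28.3 FPKM at 24 hpf and 63.4 and 48.4 FPKM at 48 hpf. The first and the third were lower in the KDM5A-KO library at each time, and the second was slightly higher.

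Most of the remaining members with a coding name stayed within 2-fold in each comparison. hadhb had an FPKM of 29.2 and 31.7 in WT and KDM5A-KO at 24 hpf and of 40.9 and 32.6 at 48 hpf, and it overlaps hadhaa, the partner subunit of the same enzyme, on the opposite strand. dsg2.1 had 13.0 and 19.4 FPKM at 24 hpf and 10.3 and 12.8 FPKM at 48 hpf, with KDM5A-KO the higher at each time. olig3 had 16.8 and 18.0 FPKM at 24 hpf and 8.55 and 16.2 FPKM at 48 hpf, so that the later WT library alone was low. It overlaps ppp3r1a, a subunit of the phosphatase calcineurin, on the opposite strand.

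Other coding names changed the order of genotypes between the times. rxrga had 5.85 and 8.42 FPKM at 24 hpf and 7.67 and 4.58 FPKM at 48 hpf. hnrnpa0a, named for a protein that binds AU-rich mRNA, had 11.3 and 15.6 FPKM at 24 hpf and 16.3 and 8.15 FPKM at 48 hpf. In both KDM5A-KO was above WT at 24 hpf and the later KDM5A-KO library was the lowest of the 4, and neither was past 2-fold between the genotypes. The ratio to WT was 1.44 (1.11 to 1.88) and then 0.597 (0.478 to 0.743) for rxrga, and 1.38 (1.13 to 1.69) and then 0.502 (0.423 to 0.594) for hnrnpa0a. After scaling by the median ratio over genes the intervals of both at 24 hpf held 1. The hnrnpa0a values are those of the member, which a separate coding gene of the same name overlaps on the same strand. That coding gene had 83.8 and 83.0 FPKM at 24 hpf and 86.9 and 54.6 FPKM at 48 hpf. Its log2 ratio of KDM5A-KO to WT was -0.01 at 24 hpf and -0.66 at 48 hpf. guca2b, matched to guanylin, a peptide hormone of the gut, had 12.9 and 7.19 FPKM at 24 hpf and 4.68 and 4.81 FPKM at 48 hpf, with the earliest WT library the highest and a ratio of KDM5A-KO to WT at 24 hpf of 0.559 (0.404 to 0.775).

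The second highest member by mean, si:dkey-153m14.1, owed that rank to 1 library. It is a lincRNA of 890 bases on chromosome 20 whose nearest coding gene with a mean of at least 1 FPKM lay 424400 bases away. It had an FPKM of 832 in the 24 hpf WT library, of 19.6 in the 24 hpf KDM5A-KO library, and of 10.1 and 12.5 in the WT and KDM5A-KO libraries of 48 hpf. The 24 hpf WT library thus stood alone, and the other 3 lay close together. The best UniProt match of this gene was ART2, a yeast reading frame that lies antisense to ribosomal RNA. The same library held the 12.1% of fragments from rRNA genes, and the gene gave 6.13 fragments per 1000 rRNA fragments there and between 2.09 and 4.07 in the other libraries. The part of rRNA in its level was not tested.

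Past a 2-fold difference on the log2(FPKM + 1) scale, where 1 FPKM was added to both values before the ratio, 8 members were higher and 7 lower in KDM5A-KO at 24 hpf. Among all 10323 genes of any biotype with the same mean level, 3.48% were higher and 0.988% lower, beside 6.30% and 5.51% of the members. These genes were not matched to the members on level within the threshold. Several of the 8 higher members reached 5 FPKM only in the KDM5A-KO libraries. Of the 7 lower ones, si:ch1073-382c16.2 and si:dkey-11n6.3 reached it only at 48 hpf, and si:dkey-153m14.1 was high in a single library. The selection by level thus bears on the shares at 24 hpf, and their difference from the background was not tested. At 48 hpf 6 members were higher and 5 lower, which is 4.72% and 3.94%, beside 4.51% and 3.62% of all genes. The shares at 48 hpf were near the background. The median log2 ratio of the members was 0.17 at 24 hpf and -0.06 at 48 hpf, beside 0.23 and 0.03 over all genes. A scaling by the median ratio over genes shifted every log2 ratio of FPKM with nothing added by -0.27 at 24 hpf. With 1 FPKM added the shift differs between genes, and the members' median there turned to -0.06. Both KDM5A-KO libraries were above both WT libraries for 19 members (15.0%), beside 21.4% of all genes, and below both for 8 members (6.30%), beside 5.05%.

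**Figure D2:**
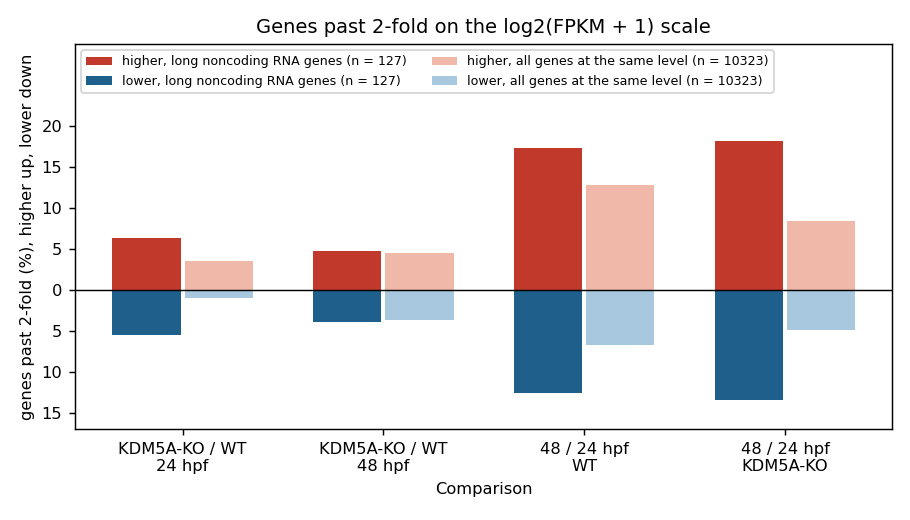
Share of genes (%) past 2-fold higher (up) or lower (down) on the log2(FPKM + 1) scale in 4 comparisons, for the 127 long noncoding RNA genes (dark bars) and for all 10323 genes with a mean FPKM of at least 5 (pale bars). The members' bars are longest in the comparisons of 48 with 24 hpf, at 17.3% higher and 12.6% lower in WT and 18.1% higher and 13.4% lower in KDM5A-KO.

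Past 2-fold at both times in the same direction were 5 members, all higher in KDM5A-KO, and 0 members were lower at both times. These are 3.94% and 0% of the members, beside 1.24% and 0.145% of all genes at the same mean level. Of the 5, 4 reached 5 FPKM only in the KDM5A-KO libraries, so that the level that chose them came from the group in which they were high. All 5 were processed_transcript genes, and all had a protein match in the table. si:dkey-204l11.1 had an FPKM of 0.417 in WT and 37.1 in KDM5A-KO at 24 hpf, and of 0.320 and 14.9 at 48 hpf. Its fragments numbered 15 and 2640 at 24 hpf and 24 and 1144 at 48 hpf, and its ratio was 88.9 (53.8 to 159) at 24 hpf and 46.5 (31.1 to 72.8) at 48 hpf. It was close to background in both WT libraries and plainly present in both others. Its best match was tumor necrosis factor receptor superfamily member 27, a receptor of ectodysplasin, and RefSeq calls the gene protein_coding.

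si:dkey-117j14.6 had an FPKM of 1.24 in WT and 35.8 in KDM5A-KO at 24 hpf, and of 0.183 and 13.1 at 48 hpf. si:rp71-1d10.6 had 0.470 and 20.7 FPKM at 24 hpf and 0.225 and 8.43 FPKM at 48 hpf. si:dkey-21o19.8 had 0.641 and 18.7 FPKM at 24 hpf and 0.230 and 8.91 FPKM at 48 hpf. In each of these the KDM5A-KO libraries lay far above the WT libraries, and the 24 hpf one was the higher of them. The ratios at 24 hpf were 28.9 (16.8 to 54.5), 44.2 (18.8 to 137) and 29.2 (11.2 to 108), with 13, 5 and 4 fragments in the WT library. At 48 hpf they were 71.4 (27.6 to 264), 37.4 (15.8 to 117) and 38.7 (12.9 to 190), and their WT counts were 4, 5 and 3 fragments.

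si:dkey-117j14.6 and si:dkey-21o19.8, which overlap the coding genes BX005392.1 and ano11, had the same best nr match, an uncharacterized protein of the tilapia Oreochromis niloticus named LOC102079676. The table held 8 genes with this match, on 7 chromosomes, of which 6 were processed_transcript and 2 protein_coding. Apart from the 2 members, 4 were long noncoding genes below the mean of 5 FPKM. In all 8 genes both KDM5A-KO libraries were above both WT libraries, beside 21.4% of all genes with a mean of at least 5 FPKM. The 8 were found through the match of 2 members already far higher in KDM5A-KO. For si:dkey-29n3.2 this order rests on 0 fragments in each WT library and 15 and 6 in the KDM5A-KO libraries. Their FPKM summed to 3.38 and 137 in WT and KDM5A-KO at 24 hpf and to 1.72 and 71.3 at 48 hpf. Of the protein_coding copies, si:dkey-40h20.1 had 0.828 and 42.9 FPKM at 24 hpf and 0.662 and 27.1 FPKM at 48 hpf, and si:dkey-85n7.7 had 0.279 and 20.5 FPKM and then 0.223 and 10.4 FPKM. The copies may be alike enough in sequence for the counting to split their reads. The level of any single copy is thus uncertain, and the 8 genes are not separate observations.

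**Figure D3:**
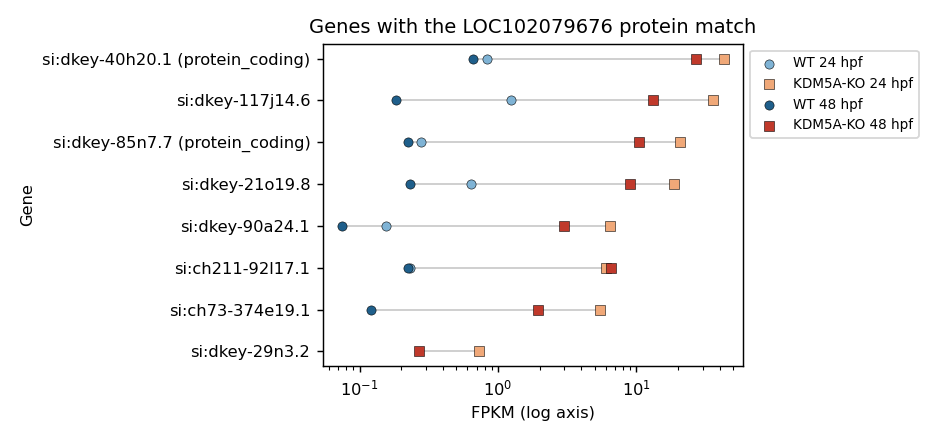
FPKM (log axis) in each library for the 8 genes whose best nr match was LOC102079676; circles are WT and squares KDM5A-KO, pale at 24 hpf and dark at 48 hpf, and values of 0 are not drawn. In each gene the 2 KDM5A-KO libraries lie to the right of any WT point drawn, and si:dkey-29n3.2 has no WT point. The summed FPKM was 137 and 71.3 in KDM5A-KO beside 3.38 and 1.72 in WT.

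The fifth gene past 2-fold at both times followed another order. si:dkey-97i18.5, matched to the uncharacterized zebrafish protein LOC101883708, had an FPKM of 2.97 in WT and 23.7 in KDM5A-KO at 24 hpf, and of 5.12 and 72.1 at 48 hpf. Here the later KDM5A-KO library was the highest, and the ratio was 7.99 (5.59 to 11.8) at 24 hpf and 14.1 (11.7 to 17.2) at 48 hpf. Its nearest coding gene, phf20l1, a reader of methylated lysine, lay 3021 bases away on the same strand and had 7.52 and 8.57 FPKM at 24 hpf and 8.47 and 7.47 FPKM at 48 hpf. The neighbour thus stayed level while the member differed.

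At 48 hpf the only further member past 2-fold higher was si:ch73-52f24.4. RefSeq calls it lncRNA, while its best nr match was an unnamed protein product of the fish Tetraodon nigroviridis. It had 17.9 and 29.3 FPKM at 24 hpf and 27.7 and 165 FPKM at 48 hpf in WT and KDM5A-KO, a ratio of 5.95 (5.48 to 6.47) at the later time. The 48 hpf KDM5A-KO library stood apart from the other 3. The coding gene at 8529 bases on the same strand, hmgn2, a nucleosome binding protein, had 1130 FPKM in WT and 986 FPKM in KDM5A-KO at 48 hpf and did not follow it. At 24 hpf the other members past 2-fold higher were si:ch211-39i2.2, si:ch211-163b2.2 and si:dkey-14o1.18. si:ch211-39i2.2, matched to a DNA damage-inducible transcript 4-like protein, had 6.85 and 18.2 FPKM at 24 hpf and 20.7 and 36.7 FPKM at 48 hpf. It overlaps brd8 on the opposite strand, and the sources do not say whether the counting used strand, so fragments of overlapping genes cannot be told apart here. si:dkey-14o1.18 dropped below 2-fold when the libraries were scaled by the median ratio or without rRNA. On the lower side, scaling by the median ratio took guca2b and si:dkey-148a12.2 past 2-fold at 24 hpf.

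**Figure D4:**
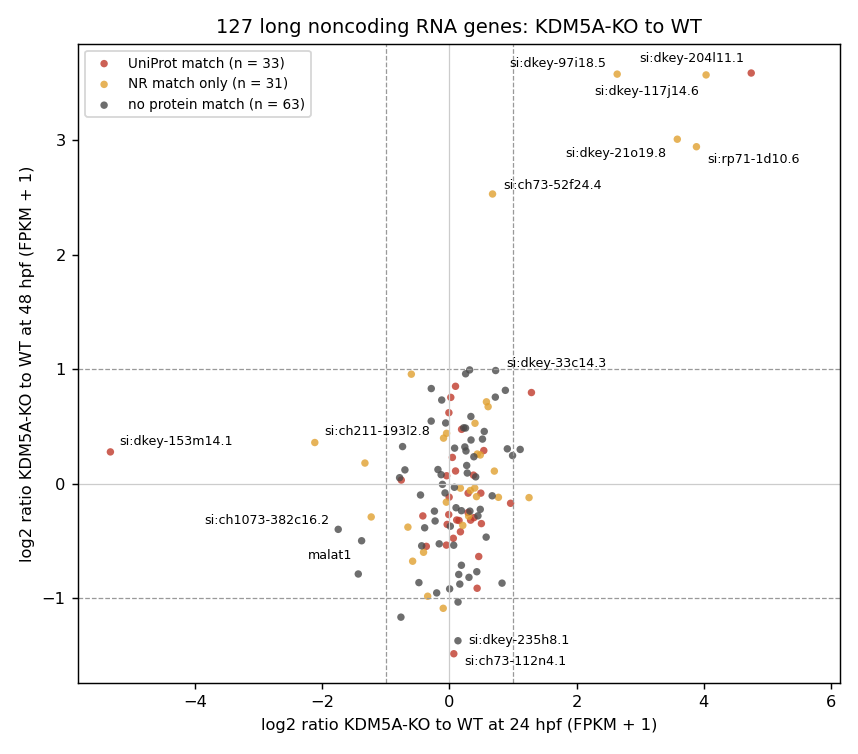
Log2 ratio of KDM5A-KO to WT on the log2(FPKM + 1) scale at 24 hpf (horizontal) and 48 hpf (vertical) for each of the 127 members, coloured by the protein match in the table, with dashed lines at 2-fold. The 5 genes past 2-fold higher at both times lie at the upper right, si:dkey-153m14.1 lies at the far left, and most members lie within 2-fold of WT at both times.

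Besides malat1 and si:dkey-153m14.1, 5 members were past 2-fold lower in KDM5A-KO at 24 hpf. si:ch211-193l2.8 had an FPKM of 20.2 in WT and 3.88 in KDM5A-KO at 24 hpf, and of 25.3 and 32.7 at 48 hpf. The 24 hpf KDM5A-KO library was thus the low one, with a ratio of 0.192 (0.143 to 0.255), while at 48 hpf KDM5A-KO was the higher at 1.29 (1.15 to 1.46). si:ch211-193l2.6, on the same strand of chromosome 11, had 13.6 and 5.21 FPKM at 24 hpf and 22.9 and 18.6 FPKM at 48 hpf. It showed the same order at 24 hpf, with a ratio of 0.384 (0.286 to 0.513). Both members had an nr protein match, and RefSeq calls si:ch211-193l2.6 protein_coding.

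These 2 members lie to one side of 3 genes of the hairy/enhancer of split class, which encode repressors that act downstream of Notch in neural progenitors. her15.1 had 50.4 and 36.1 FPKM in WT and KDM5A-KO at 24 hpf and 32.2 and 37.9 FPKM at 48 hpf, and her2 had 47.2 and 34.3 FPKM and then 13.4 and 19.1 FPKM. Of the unnamed coding genes between and beside the 2 members, si:ch211-193l2.4 had a log2 ratio of -1.22 and si:ch211-193l2.7 of -1.38 at 24 hpf, and at 48 hpf of 0.04 and 0.40. The genes of this stretch were lower in the 24 hpf KDM5A-KO library by different amounts, the 2 members and the last 2 genes named most, except abhd6a and si:ch211-193l2.10, which were higher at 0.661 and 4.14 FPKM beside 0.280 and 2.38 FPKM in WT.

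si:ch1073-382c16.2, si:dkey-11n6.3 and si:dkey-53i3.1 were the other members past 2-fold lower at 24 hpf. si:dkey-11n6.3 had an FPKM of 2.55 in WT and 0.312 in KDM5A-KO at 24 hpf, on 33 and 8 fragments. si:ch1073-382c16.2 had 3.13 and 0.226 FPKM on 7 and 1 fragments, and the interval of its ratio ran from 0.0016 to 0.562. Both were far higher at 48 hpf, with 45.9 and 26.1 FPKM for the first and 44.1 and 33.2 FPKM for the second. si:dkey-53i3.1, just inside the mean of 5, had 8.60 and 2.82 FPKM at 24 hpf and 4.35 and 5.06 FPKM at 48 hpf.

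At 48 hpf the members past 2-fold lower in KDM5A-KO were si:ch73-112n4.1, si:dkey-235h8.1, si:ch73-214d15.1, si:ch73-197b13.1 and si:dkey-181d19.3. All but the last were also past 2-fold higher in WT at 48 than at 24 hpf, a comparison that shares the 48 hpf WT library. si:ch73-112n4.1, matched to dihydropyrimidinase-related protein 2, a protein of axon growth, had an FPKM of 2.80 in WT and 2.98 in KDM5A-KO at 24 hpf, and of 22.6 and 7.41 at 48 hpf. si:dkey-235h8.1 had 3.10 and 3.50 FPKM at 24 hpf and 60.1 and 22.6 FPKM at 48 hpf. The genotypes were alike at 24 hpf in these genes and parted at 48 hpf, with ratios of 0.328 (0.284 to 0.378) and 0.376 (0.347 to 0.407).

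si:ch73-214d15.1 had an FPKM of 4.38 in WT and 2.17 in KDM5A-KO at 24 hpf, and of 17.1 and 7.07 at 48 hpf. Its coding neighbour SIPA1, a GTPase activating protein for Rap, lies 3720 bases away on the opposite strand and had 3.61 and 1.59 FPKM at 24 hpf and 15.0 and 5.32 FPKM at 48 hpf. The pair had the same order of libraries. si:ch73-197b13.1 had 3.36 and 3.07 FPKM at 24 hpf and 20.8 and 9.26 FPKM at 48 hpf. si:dkey-181d19.3 had 6.98 and 7.76 FPKM at 24 hpf and 6.99 and 2.90 FPKM at 48 hpf, so that only the last library was low. Markers of neurons and lens were also lower in the 48 hpf KDM5A-KO library. The summed FPKM of elavl3 and elavl4, which encode RNA binding proteins of neurons, stood at 71.9 and 61.4 in the 24 hpf libraries and at 261 and 157 in the later pair, with 2 of 2 genes lower at the later time and 1 past 2-fold. All 3 of the 3 crystallin genes were past 2-fold lower at 48 hpf, while 3 of 4 muscle genes were higher. The part of tissue makeup in the members' differences was not tested.

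The difference between the times was larger than that between the genotypes. In WT 22 members were past 2-fold higher at 48 than at 24 hpf and 16 past 2-fold lower, which is 17.3% and 12.6%, beside 12.8% and 6.66% of all genes at the same mean level. In KDM5A-KO 23 members were higher and 17 lower, which is 18.1% and 13.4%, beside 8.46% and 4.83%. The median log2 ratio of the members was 0.16 in WT and -0.07 in KDM5A-KO, beside 0.06 and -0.18 over all genes. Of these members, 15 were higher and 9 lower in both genotypes, which is 11.8% and 7.09%, beside 6.89% and 2.68% of all genes. Most of the 15 reached 5 FPKM only in the 48 hpf libraries, and most of the 9 only in the 24 hpf libraries. The level that chose these members thus came from the time at which they were high. All genes passed the same filter but were not matched to the members on level, and the difference in shares was not tested. Both 48 hpf libraries were above both 24 hpf libraries for 40 members (31.5%), beside 26.3% of all genes, and below both for 39 members (30.7%), beside 30.5%. Within 2-fold in all 4 comparisons were 70 members (55.1%), beside 74.1% of all genes.

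**Figure D5:**
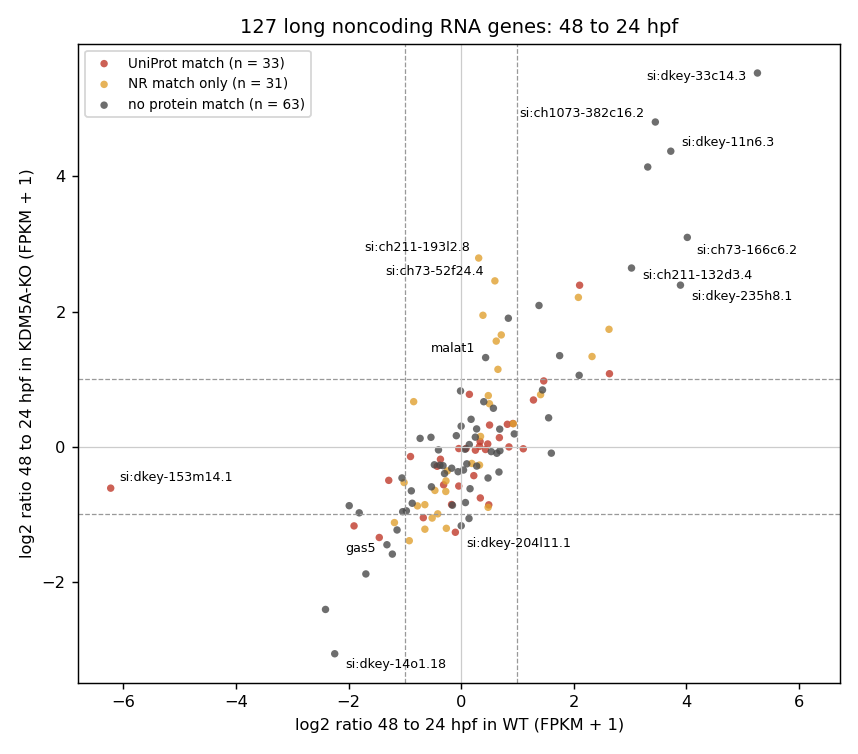
Log2 ratio of 48 to 24 hpf on the log2(FPKM + 1) scale in WT (horizontal) and KDM5A-KO (vertical) for each of the 127 members, coloured by the protein match in the table, with dashed lines at 2-fold. The 15 members past 2-fold higher in both genotypes lie at the upper right and the 9 lower in both at the lower left, while si:dkey-153m14.1 lies at the far left.

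The 5 members with the largest increase from 24 to 48 hpf in WT on the log2(FPKM + 1) scale had no protein match, as had 63 of all 127 members. All 5 reached 5 FPKM only in the 48 hpf libraries, so they passed the threshold through the time at which they were high. si:dkey-33c14.3, a lincRNA on chromosome 2 that RefSeq calls lncRNA, had an FPKM of 0.382 in WT and 1.29 in KDM5A-KO at 24 hpf, and of 52.1 and 104 at 48 hpf. It was almost undetected at 24 hpf, with 3 and 20 fragments, and was the eighth highest member by mean. si:ch73-166c6.2 had 0.208 and 0.211 FPKM at 24 hpf, on 1 and 2 fragments, and 18.6 and 9.35 FPKM at 48 hpf. The ratio of 48 to 24 hpf in WT was 136 (46.5 to 663) for the first, and for the second its lower bound was 15.8. The later KDM5A-KO library was the higher for the first and the lower for the second.

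si:dkey-235h8.1, si:dkey-11n6.3 and si:ch1073-382c16.2, described above, completed the 5 on that scale, with FPKM ratios in WT of 19.4 (14.9 to 25.7), 18.0 (12.8 to 26.3) and 14.1 (6.72 to 35.5). In KDM5A-KO the same genes were 6.45, 83.7 and 147 times as high at 48 as at 24 hpf, the last against 1 fragment and with an interval from 26 to 5844. Markers of tissues also differed between the times, in both directions. The 4 muscle genes summed to 2772 and 2389 FPKM at 24 hpf and to 7750.1 and 10337 FPKM at 48 hpf. The 9 genes of somite segmentation summed to 45.7 and 63.6 FPKM and then to 28.3 and 32.4 FPKM, with 8 of 9 lower at 48 hpf in each genotype. The 3 epidermal genes summed to 4723 and 6259 FPKM and then to 5872 and 6229 FPKM. Their part in the members' differences was not tested.

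Further members were past 2-fold higher at 48 hpf in both genotypes. The lincRNA si:ch211-132d3.4 had 10.2 and 7.04 FPKM at 24 hpf and 90.5 and 49.2 FPKM at 48 hpf. si:dkey-100j22.4 and si:dkey-100j22.7, whose clone names are the same, moved together over time, with 2.80 and 5.48 FPKM at 24 hpf and 22.4 and 20.6 FPKM at 48 hpf for the first. The second had 2.90 and 4.15 FPKM at 24 hpf and 15.5 and 22.8 FPKM at 48 hpf, and the best nr match of the first is a protein named after the second. That of the second is protein SOGA3. Both lie beyond the 3′ end of the coding gene soga3b on the same strand, the second at 104 bases. soga3b was also past 2-fold higher at 48 hpf, with 0.425 and 0.268 FPKM at 24 hpf and 2.90 and 1.56 FPKM at 48 hpf. si:ch211-285j16.4, matched to an alpha-2-macroglobulin-like protein, a class of protease inhibitors, had 1.73 and 2.12 FPKM and then 10.7 and 15.3 FPKM.

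Lower at 48 hpf were members of several kinds. gas5, which in mammals is the spliced host of small nucleolar RNAs that guide rRNA methylation, had an FPKM of 7.58 in WT and 11.3 in KDM5A-KO at 24 hpf, and of 2.44 and 3.51 at 48 hpf. Both later libraries were below both earlier ones, and KDM5A-KO was above WT at each time. The ratio of 48 to 24 hpf was 0.322 (0.256 to 0.404) in WT and 0.310 (0.262 to 0.366) in KDM5A-KO, and that of KDM5A-KO to WT was 1.49 (1.26 to 1.76) at 24 hpf and 1.44 (1.14 to 1.81) at 48 hpf. It was the only snoRNA host of the table with a name of this class.

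The summed FPKM of the genes for proteins that package small nucleolar RNAs had the same order of libraries as gas5. The list mixes proteins of the methylation class with those of the pseudouridylation class. Of the 11 genes listed for these particles (snoRNPs), 9 were found, among them fbl, the methyltransferase, and dkc1, the pseudouridine synthase. Their FPKM summed to 941 and 1498 in WT and KDM5A-KO at 24 hpf and to 332 and 732 at 48 hpf. All 9 were above WT in KDM5A-KO at both times, 7 of them past 2-fold at 48 hpf, beside 74.6% and 52.2% of all genes above WT at 24 and 48 hpf and the 4.51% past 2-fold higher at 48 hpf. Their median log2 ratio was 0.63 at 24 hpf and 1.1 at 48 hpf. All 9 stayed above WT at 24 hpf after scaling by the median ratio. In WT 8 of the 9 were past 2-fold lower at 48 than at 24 hpf.

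si:ch211-114n24.7, an older name of bin1b in RefSeq, had an FPKM of 33.7 in WT and 27.5 in KDM5A-KO at 24 hpf, and of 7.75 and 14.6 at 48 hpf. The table also lists bin1b itself, which encodes a membrane bending adaptor, 2141 bases away on the same strand, at 37.1 and 25.7 FPKM at 24 hpf and 6.79 and 20.2 FPKM at 48 hpf. The order of the 4 libraries was the same in the pair, and the member lies beyond the 3′ end of bin1b. si:ch211-223c9.2, matched to RNA-binding protein 20, a splicing regulator of heart and muscle genes, had 14.5 and 14.7 FPKM at 24 hpf and 3.14 and 5.99 FPKM at 48 hpf. Its neighbour pdcd4b, an inhibitor of translation, went the other way over time in WT, from 9.23 to 27.4 FPKM. si:dkey-14o1.18 had 6.21 and 14.6 FPKM at 24 hpf and 0.521 and 0.871 FPKM at 48 hpf, and si:ch211-279m15.1, which overlaps sash1a on the opposite strand, had 11.2 and 8.33 FPKM and then 1.3 and 0.762 FPKM. Both were nearly absent at 48 hpf in either genotype. si:dkey-16m19.4, matched to a sterile alpha motif protein, was the highest of the members past 2-fold lower in both genotypes, with 25.7 and 39.8 FPKM at 24 hpf and 10.8 and 17.7 FPKM at 48 hpf.

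The members with an antisense or linc name completed the lists. birc6-as2 lies on the strand opposite to birc6, an inhibitor of apoptosis, and had an FPKM of 3.42 in WT and 2.49 in KDM5A-KO at 24 hpf, and of 10.8 and 4.95 at 48 hpf. It passed the threshold through the 48 hpf WT library. birc6 had between 11.4 and 12.3 FPKM in all 4 libraries and did not follow it. 2 members, si:ch211-265m20.8 and si:dkeyp-10a3.2, carry current symbols that begin with linc. si:ch211-265m20.8 overlaps dgcr14 and had 7.43 and 8.60 FPKM at 24 hpf and 7.89 and 4.42 FPKM at 48 hpf. si:dkeyp-10a3.2, which lies 1618 bases from the start side of nr2f1a on the other strand, had 7.11 and 4.99 FPKM at 24 hpf and 7.51 and 4.84 FPKM at 48 hpf. nr2f1a, a nuclear receptor of forebrain and heart patterning, had 56.1 and 40.1 FPKM and then 80.1 and 49.5 FPKM, so that in this pair KDM5A-KO was below WT at each time. No member had the name of a miRNA host.

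The position of the members relative to coding genes was read from the table, whose genome build is not named, so distances but no coordinates are given. The nearest protein-coding gene with a mean of at least 1 FPKM lay within 10000 bases for 96 of the 127 members. It overlapped the member in 22 of these pairs, of which 12 were on the same strand and 10 on the opposite one. In 30 pairs the member lay beyond the 3′ end of the gene on the same strand, in 19 beyond the 3′ end on the opposite strand, in 15 before the 5′ end on the same strand and in 10 before the 5′ end on the opposite strand. The member had the higher mean FPKM in 56 of the 96 pairs. Members needed a mean of at least 5 FPKM and neighbours only 1 FPKM, so this count was tilted in advance by the selection.

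Log2 ratios of member and neighbour were only weakly related across the 96 pairs. Spearman's rho was 0.28 for KDM5A-KO against WT at 24 hpf and 0.16 at 48 hpf, and 0.11 and 0.20 for 48 against 24 hpf in WT and KDM5A-KO. Pearson's r was 0.20, 0.10, 0.10 and 0.09. These are descriptions across genes of the same 4 libraries, which are not independent replicates. Leaving out the overlapping pairs gave rho of 0.33, 0.18, 0.13 and 0.17 over 74 pairs. Of the 24 members of the 96 pairs that were past 2-fold between the times in WT, 7 had a neighbour past 2-fold in the same direction. Of the 26 that were past 2-fold between the times in KDM5A-KO, 3 had such a neighbour. Of the 7 past 2-fold between the genotypes at 24 hpf, 1 had, and of the 7 at 48 hpf, 1 had. Among all genes with a mean of at least 5 FPKM, 12.8% were past 2-fold higher and 6.66% lower between the times in WT. Between the times in KDM5A-KO these shares were 8.46% and 4.83%. Between the genotypes they were 3.48% and 0.988% at 24 hpf and 4.51% and 3.62% at 48 hpf. Neighbours needed a mean of only 1 FPKM, so the shares are not matched to them, and the difference was not tested. Pairs such as si:ch211-114n24.7 with bin1b and si:ch73-214d15.1 with SIPA1 were fewer than pairs in which the neighbour did not follow. RefSeq gives si:ch211-114n24.7 as an older name of bin1b, so that pair may not be separate genes.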

How the data were processed

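RNA-seq of 4 whole embryo libraries was analysed, 1 each of WT and KDM5A-KO at 24 and 48 hpf. Per the methods and the submitters' processing notes, the authors checked reads with FastQC 0.11.5, filtered them with NGSQC, aligned them with HISAT2 2.1.0, quantified genes with StringTie 1.3.3b and called differences with DESeq 1.28.0. They deposited FPKM values, 1 per Ensembl gene and library. The notes name a mouse build, and the zebrafish build is not given in the sources used here. The library kit is named differently in the labels and the methods.

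Columns were assigned to libraries from their names, with C read as WT, K as KDM5A-KO and 1 and 2 as 24 and 48 hpf, which the table does not spell out. Fragments were taken to be the least whole numbers that fit a gene's 4 FPKM values, with totals from 7441797 to 15922314 and a recovered share from 98.2% to 98.5%. Where a multiple of these numbers would give the same values, the count may be larger and the interval too wide. This recovery and the 2-fold calls were tested on simulated data, which cannot show whether the fragments recovered for the real libraries are right. Ratios were taken as log2 of (FPKM + 1), and 2-fold was the threshold. Counting intervals are 95% exact Clopper-Pearson intervals. Computation used Python 3.11.15, numpy 2.4.6, pandas 2.3.3, scipy 1.17.1 and matplotlib 3.10.9.

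The members and the gene lists were chosen with earlier results of these data known. Members named in the text were the 8 with the highest mean, the 5 highest and 5 lowest log2 ratios of KDM5A-KO to WT at each time and of 48 to 24 hpf in WT among members with at least 30 fragments over the 2 libraries, the members with snoRNA host, antisense, miRNA host or established long noncoding names, the 3 just inside the threshold, and their coding neighbours. Other genes named, such as the copies of LOC102079676, the genes beside si:ch211-193l2.8, the coding names and the remaining members past 2-fold, were chosen after their values were seen. Of the 127 gene IDs, 116 were in the table of current symbols. RefSeq entries were matched by symbol, and a symbol borne by more than 1 row was left unmatched. The alternatives were another pseudocount, scaling, fold threshold, mean level and subsets of the members.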

Additional observations from a re-analysis of the deposited data

Results flagged for a closer look

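In 8 of the 50 members named in the text, the counting interval of the ratio of KDM5A-KO to WT or of 48 to 24 hpf lay wholly above 1 in one pair of libraries and wholly below 1 in the other. The named members were partly chosen by extreme ratios or after their values were seen. No share over all members or all genes stands beside this count, so it is a description of the named members only. Each group had 1 library, so the difference between the pairs was not tested against a replicate spread. For rps20 the log2 ratio of KDM5A-KO to WT was 0.06 at 24 hpf and -0.48 at 48 hpf, a difference of -0.54. For oip5-as1 it was 0.32 and -0.24, and the log2 ratio of 48 to 24 hpf was 0.28 in WT and -0.29 in KDM5A-KO, which both give a difference of -0.56. For si:ch211-114n24.7 the log2 ratio of KDM5A-KO to WT was -0.29 at 24 hpf and 0.83 at 48 hpf, a difference of 1.12. si:ch211-193l2.8 had the largest such difference of the 8, 2.48, from -2.12 to 0.36. For ENSDARG00000102240, a lincRNA on chromosome 3, the difference was -0.85, from 0.50 to -0.35. si:dkey-53i3.1 had a log2 ratio of 48 to 24 hpf of -0.84 in WT and of 0.67 in KDM5A-KO, which differ by 1.51. The remaining 2 members showed both kinds. For the member hnrnpa0a, not the coding gene of this name, the log2 ratio of KDM5A-KO to WT was 0.44 at 24 hpf and -0.91 at 48 hpf. That of 48 to 24 hpf was 0.49 in WT and -0.86 in KDM5A-KO, each a difference of -1.35. For rxrga these were 0.46 and -0.64, and 0.34 and -0.76, each a difference of -1.10. After scaling by the median ratio over genes, 5 of the 11 pairs of ratios still had intervals on opposite sides of 1. These were the ratios of KDM5A-KO to WT of si:ch211-114n24.7 and si:ch211-193l2.8 and the ratios of 48 to 24 hpf of oip5-as1, hnrnpa0a and si:dkey-53i3.1. In the other 6 pairs the interval of the first ratio no longer lay on its former side of 1. For rps20 it turned to -0.21 on the log2 scale, and for oip5-as1, hnrnpa0a, rxrga and ENSDARG00000102240 the interval of the ratio then held 1.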

How the results depend on the processing

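The counts of members past 2-fold and the medians of their log2 ratios were recomputed under other settings. Shares over all genes are given above only for 2-fold, 1 FPKM added and a mean of at least 5 FPKM. Counts under another threshold, pseudocount, scaling or mean level therefore have no background beside them and are not read as a result about the members. With 0.1 FPKM added in place of 1, 13 members were higher in KDM5A-KO at 24 hpf. With the libraries scaled by the median ratio over genes, the median log2 ratio was -0.059 for KDM5A-KO against WT at 24 hpf and 0.067 for 48 against 24 hpf in KDM5A-KO. This scaling shifted the log2 ratios of FPKM with nothing added by -0.27 at 24 hpf, by -0.10 for the times in WT and by 0.15 for the times in KDM5A-KO. With totals that leave out rRNA fragments, chosen after seeing the data, the median at 24 hpf was 0.011. At a 3-fold threshold 5 members were higher and 3 lower in KDM5A-KO at 24 hpf, 0 were lower at 48 hpf, and 7 and 4 were lower at 48 than at 24 hpf in WT and KDM5A-KO.

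Among the 58 members with a mean of at least 10 FPKM, 4 were higher in KDM5A-KO at 24 hpf and 1 was lower at 48 hpf, where the median was 0.12. From 24 to 48 hpf 12 of these were higher and 5 lower in WT, and 15 and 6 in KDM5A-KO. Among the 411 genes of these biotypes with a mean of at least 1 FPKM, 32 were higher and 22 lower in KDM5A-KO at 24 hpf, 21 and 23 at 48 hpf, 81 and 34 between the times in WT, and 49 and 44 in KDM5A-KO. Among the 101 members that overlap no protein-coding gene, 5 were higher in KDM5A-KO at 24 hpf. Among the 54 lincRNA members, 1 was higher and 4 lower at 24 hpf, 0 and 2 at 48 hpf, 11 and 5 between the times in WT, and 11 and 4 in KDM5A-KO. Among the 63 members with no protein match, also chosen after seeing the data, 1 was higher and 3 lower at 24 hpf, 0 and 3 at 48 hpf, 13 and 10 between the times in WT, and 12 and 8 in KDM5A-KO. These subsets are smaller or larger than the 127 members by construction.

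The correlations with coding neighbours kept their sign within 50000 bases and without overlapping pairs. No member was under 200 bases or 30 fragments. No paired analysis was possible because a single library stood for each group, with no replicate numbers to pair and no replicate to leave out. The depth of the 24 hpf WT library was the lowest, and ratios against 1 to 5 fragments have wide intervals.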

Other observations

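Genes of the machinery that degrades noncoding transcripts were also read. One list held the RNA exosome, which trims and destroys many of them in the nucleus, together with its adaptors, among them skiv2l2, zcchc8 and rbm7. It had 15 rows for 14 genes. Of these rows 14 of 15 were higher in KDM5A-KO at each time, beside 74.6% and 52.2% of all genes at 24 and 48 hpf. The row that was not higher was exosc1 at 24 hpf and rbm7 at 48 hpf. After scaling by the median ratio 14 of 15 were still higher at 24 hpf, but none past 2-fold. The FPKM of the whole list summed to 263 and 389 in WT and KDM5A-KO at 24 hpf and to 166 and 241 at 48 hpf. Before scaling 1 row, exosc2, was past 2-fold at both times with 20.5 and 45.3 FPKM and then 10.9 and 26.9 FPKM. The genes of nonsense-mediated decay, which removes transcripts with early stop codons, showed another order. All 9 found were above WT in KDM5A-KO at 24 hpf with a median log2 ratio of 0.24, near the 0.23 of all genes, and 5 of 9 after scaling by the median ratio, while 2 of 9 were above WT at 48 hpf.

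A group of 9 members had the zinc finger domain zf-H2C2_2 listed in the table, and 6 of these lay on chromosome 22, which held 14 of the 127 members. None of the 9 was past 2-fold between the genotypes. Such calls were also few among the 154 protein-coding genes with this domain and a mean of at least 5 FPKM. Of these, 1.95% were past 2-fold higher and 0% lower at 24 hpf, and 2.60% and 3.90% at 48 hpf. With 9 members, shares of this size cannot be told from none. The median log2 ratio of KDM5A-KO to WT of the 9 members was 0.29 at 24 hpf and -0.27 at 48 hpf, beside 0.15 and -0.18 for the 154 genes. Zinc finger genes form large families of like copies, so their counts may be shared between copies. Over time, 1 of them, si:dkeyp-79b7.6, which overlaps znf1157 on the same strand, was past 2-fold, with 20.2 FPKM at 24 hpf and 9.23 FPKM at 48 hpf in KDM5A-KO.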
